A study of Mus musculus with 6 samples.

Results

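The genes described here are 10 members of the fibroblast growth factor (FGF) family: the ligand genes Fgf1, Fgf2, Fgf5, Fgf7, Fgf9, Fgf10, Fgf18 and Fgf21 and the receptor genes Fgfr1 and Fgfr2. They were chosen by symbol, through the RefSeq accession that each array probe carries, from 20832 named genes on the array. The 10 genes had 15 probes, and 9 of the genes had a probe bright enough to be tested among the 13715 genes tested in all. The samples were 6 cultures of primary mouse prostate cells, all p53-/- per the labels. In 3 cultures, of genotype p53-/- Rbf/f, an adenovirus carrying lacZ left Rb intact; in the other 3, labelled p53-/- Rb∆f/∆f, an adenovirus carrying Cre recombinase deleted Rb. Vector and Rb status therefore went together in every culture. RNA was taken 48 hours after infection, and each culture was hybridised to its own 1-colour array. The labels give no age of the mice and no sorted cell type, and the series speaks of independent experiments. Every culture was grown in a Prostacult medium lacking FBS to which bFGF and bEGF had been added. The bFGF is the protein that Fgf2 encodes, so the arrays report the transcripts of cells that were already exposed to an FGF.

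FGFs are signalling proteins that bind tyrosine kinase receptors together with heparan sulphate chains on the cell surface. The activated receptor recruits adaptor proteins and switches on the Ras-ERK and PI3-kinase pathways, whose targets include their own inhibitors. In the prostate, Fgf7 and Fgf10 are known as factors of the stroma, the connective tissue around the ducts, that act on a splice form of Fgfr2 in the epithelium, and Fgf10 is needed for the prostate buds to form.

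Levels are log2 intensities from which the 75th percentile of their array was subtracted, so a level of 0 is the intensity below which 75% of the spots lie. A level belongs to its probe, so the brightest gene of a list is the one with the brightest probe, and neither that nor a sum over a list compares amounts of RNA between genes. A difference is the mean level with Rb deleted minus that with Rb intact, in log2 units, with the SE of a limma fit over all 13715 genes and a p-value adjusted over them by the Benjamini-Hochberg method. Rose and fell are used where that adjusted p was under 0.05.

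Each array detected between 58.7% and 63.3% of its probes above background, and no gene spot was saturated. The targeted gene Rb1 stood at -1.15, -1.14 and -1.17 in Rb intact 1, 2 and 3 and at -3.13, -3.12 and -3.07 in Rb deleted 1, 2 and 3. Rb1 fell by 1.96 ± 0.05 (SE, limma adjusted p = 8.23e-05), with all 3 Rb deleted cultures below all 3 Rb intact cultures. The arrays lay on 2 slides, the first with all Rb intact arrays and Rb deleted 1, the second with Rb deleted 2 and 3. In a fit with slide as a block, each difference is therefore that of Rb deleted 1 from the Rb intact arrays, as within the first slide. Rb deleted 2 and 3 then add only to the estimate of the spread. Rb intact 1 lay apart from Rb intact 2 and 3 for several FGF genes below. Leaving it out raised the number of changed genes from 2779 to 5104.

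Of the 9 measured FGF genes, Fgf2 and Fgf10 rose, Fgf18 fell, and 6 did not pass the test. The 3 called genes are 33.3% of those measured, beside 20.3% of all tested genes called in either direction, 9.46% called higher and 10.8% called lower. In such bulk RNA, fewer cells of a type and less RNA per cell cannot be told apart. The groups did not overlap for these 3 genes, beside 45.2% of all genes. The median size of the difference was 0.26 over the 9 FGF genes and 0.16 over all genes, and the median difference was -0.08 against 0.01. Within the first slide, where Rb deleted 1 is the only Rb deleted array and was taken to vary like the others, the differences of Fgf2, Fgf10 and Fgf18 were 1.01, 0.25 and -0.79, and none of the 9 FGF genes passed limma's threshold (adjusted p = 0.128, 0.421 and 0.0775; 3 of 9 had an unadjusted p under 0.05), while 1.12% of all genes did.

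**Figure D1:**
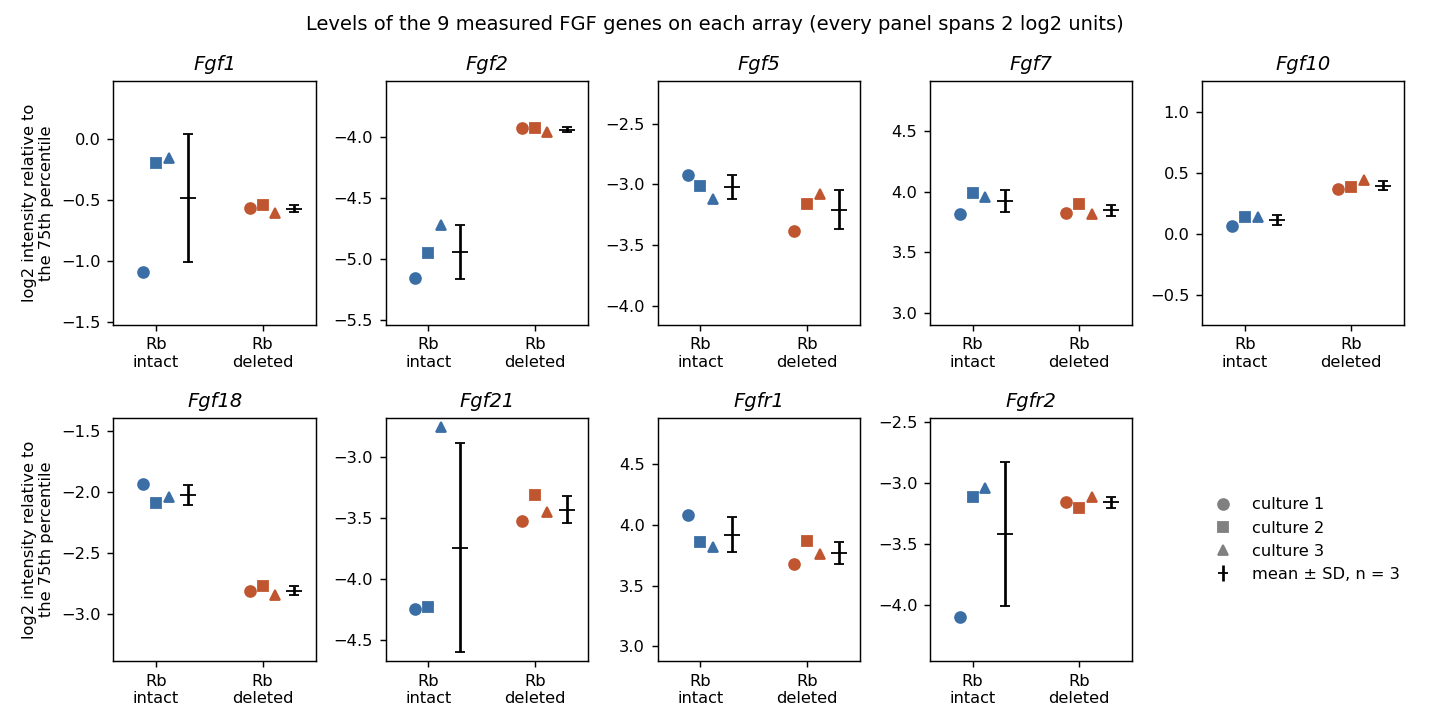
Levels of the 9 measured FGF genes (vertical axis, log2 intensity less the 75th percentile), in the 3 Rb intact (blue) and the 3 Rb deleted (red) cultures, with mean and SD; marker shapes give the culture number. The groups are apart for Fgf2, Fgf10 and Fgf18, and single Rb intact cultures lie far from their group for Fgf1, Fgf21 and Fgfr2.

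Fgf2 rose, and on the brightest probe of each gene its difference was the largest of the 9 in size; with the mean of the probes of a gene, or with a background model on median signal, that of Fgf18 was about as large. It encodes basic FGF, a ligand that lacks a classical secretion signal and is a mitogen for many cell types. The processed intensity of its probe was 99.7, 136 and 148 in Rb intact 1, 2 and 3, and 265, 250 and 275 in Rb deleted 1, 2 and 3. On the log2 scale relative to the 75th percentile, the Rb intact cultures had a level of -4.94 ± 0.22 and the Rb deleted cultures of -3.94 ± 0.02 (SD, n = 3 each). All 3 Rb deleted cultures were higher than every Rb intact culture, and the Rb deleted cultures lay closer together than the Rb intact ones. Fgf2 rose by 1.00 ± 0.11 (SE), or 2.01-fold, with a 95% interval of 0.74 to 1.27 and a limma adjusted p of 0.00243. By size, the Fgf2 difference ranked 306th of 13715 genes.

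The array carries the Fgf2 probe on 10 spots, which gives the error of the measurement within an array. The SD over these spots was between 0.09 and 0.20, and the lowest of the 30 spots on Rb deleted arrays, at -4.08, was above the highest of the 30 on Rb intact arrays, at -4.59. The probe was dim, and with a background model on median spot signal the difference was 0.64 ± 0.08 (limma adjusted p = 0.00167). With slide as a block, where Rb deleted 1 alone sets the difference, that of Fgf2 was 1.01.

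The gene Nudt6 overlaps Fgf2 in the annotation and is known as its antisense partner; it was looked up after the Fgf2 values were seen. Its brighter probe stood at -1.20, -0.81 and -0.83 in Rb intact 1, 2 and 3 and at -0.49, -0.48 and -0.45 in Rb deleted 1, 2 and 3, a difference of 0.47 ± 0.11 (SE, limma adjusted p = 0.0308). Its other probe, tested on its own, gave 0.20 ± 0.17 (limma adjusted p = 0.454). The Nudt6 call was lost without Rb deleted 1, 2 or 3 (limma adjusted p = 0.0826, 0.104 and 0.108) and without Rb intact 3 (0.0512). It was lost too when slide was a block (0.231), with the background model on median signal (0.056) and with the mean of both probes (0.11). Whether the 2 genes share probe signal was not tested.

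Fgf10, a ligand of prostate stroma, rose by less. Its probe, also on 10 spots, gave a level of 0.07, 0.14 and 0.14 in Rb intact 1, 2 and 3 and of 0.37, 0.38 and 0.44 in Rb deleted 1, 2 and 3. The groups did not overlap. Fgf10 rose by 0.28 ± 0.05 (SE), or 1.21-fold, with a 95% interval of 0.15 to 0.41 and a limma adjusted p of 0.0157. The SD over spots was 0.04 to 0.07, and 1 of the 30 spots on Rb deleted arrays lay at or below the highest of the 30 on Rb intact arrays. The call was lost without Rb intact 3, Rb deleted 2 or Rb deleted 3, with differences of 0.29, 0.29 and 0.26 (limma adjusted p = 0.0502, 0.0732 and 0.0817), and with slide as a block, at 0.25 ± 0.08 (adjusted p = 0.185).

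**Figure D2:**
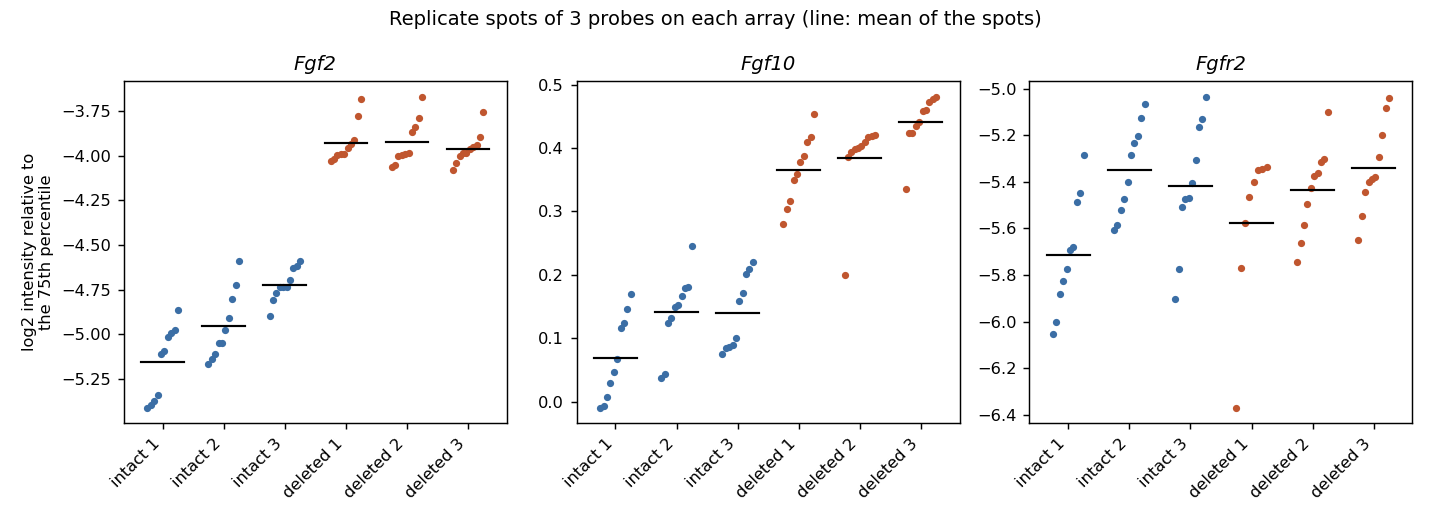
Level of every replicate spot of the Fgf2, Fgf10 and Fgfr2 probes (log2 intensity relative to the 75th percentile, vertical axis) on each of the 6 arrays, with the mean of the spots as a line. Spots of Fgf2 do not overlap between the groups, 1 Rb deleted spot of Fgf10 lies within the Rb intact range, and those of Fgfr2 overlap between the groups.

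Fgf18, a ligand best known from skeletal and lung development, was the FGF gene that fell. Its brighter probe gave an intensity of 923, 978 and 947 in Rb intact 1, 2 and 3 and of 572, 555 and 594 in Rb deleted 1, 2 and 3. These are levels of -2.02 ± 0.08 and -2.81 ± 0.04 (SD, n = 3 each), with every Rb deleted culture below every Rb intact culture. Fgf18 fell by 0.79 ± 0.06 (SE), or 1.73-fold, with a 95% interval of -0.94 to -0.64 and a limma adjusted p of 0.000748.

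The other Fgf18 probe stood at an intensity of 390, 400 and 394 in Rb intact 1, 2 and 3 and of 195, 161 and 170 in Rb deleted 1, 2 and 3, again without overlap. It gave -1.23 ± 0.10 (SE), or 2.35-fold lower, with a limma adjusted p of 0.00112 in a fit over 23016 probes taken each on its own. In that fit 15.7% of all probes and 4 of 13 FGF probes were called, the 4 being the Fgf2 and Fgf10 probes and both Fgf18 probes. The mean of the Fgf18 probes gave a difference of -1.01 ± 0.07 (limma adjusted p = 0.000501). With slide as a block, where Rb deleted 1 alone sets the difference, the brighter probe gave -0.79.

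Fgf18 had the smallest p of the FGF genes, and the 3 genes whose levels followed it most closely over the 6 arrays were Crct1, a gene of the epidermal differentiation complex, the chitinase-like gene Chil1 and Inhbb, which encodes an activin subunit. Pearson's r with Fgf18 was 0.9997, 0.9994 and 0.9991, and these genes differed by -1.08, -1.45 and -1.48. The 6 arrays form 2 groups that all 4 genes separate, and 178 of 13714 genes had an r above 0.99 with Fgf18, so these values describe a shared group difference.

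The promoters of the 3 called genes are given because these are the FGF genes whose transcript differed between the groups. They come from RefSeq on build GRCm38.p6, 250 bases before to 50 after the gene's start, 5′ to 3′ on the gene's own strand: Fgf2 at chr3:37348403-37348702 (plus strand), Fgf10 at chr13:118714449-118714748 (plus strand) and Fgf18 at chr11:33147351-33147650 (minus strand). Capitals mark the GC box GGGCGG, or its reverse complement, known as a site of Sp1.
Fgf2: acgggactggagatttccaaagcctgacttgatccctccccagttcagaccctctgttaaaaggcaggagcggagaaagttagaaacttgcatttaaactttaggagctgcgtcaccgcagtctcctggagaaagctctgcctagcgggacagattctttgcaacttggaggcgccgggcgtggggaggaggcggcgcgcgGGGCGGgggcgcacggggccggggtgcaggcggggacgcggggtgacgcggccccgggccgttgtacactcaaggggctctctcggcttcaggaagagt
Fgf10: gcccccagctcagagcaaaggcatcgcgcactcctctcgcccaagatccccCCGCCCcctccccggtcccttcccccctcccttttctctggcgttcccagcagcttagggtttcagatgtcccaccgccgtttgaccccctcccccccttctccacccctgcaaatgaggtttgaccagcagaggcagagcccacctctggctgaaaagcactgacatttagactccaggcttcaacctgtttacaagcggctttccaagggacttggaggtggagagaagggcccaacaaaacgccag
Fgf18: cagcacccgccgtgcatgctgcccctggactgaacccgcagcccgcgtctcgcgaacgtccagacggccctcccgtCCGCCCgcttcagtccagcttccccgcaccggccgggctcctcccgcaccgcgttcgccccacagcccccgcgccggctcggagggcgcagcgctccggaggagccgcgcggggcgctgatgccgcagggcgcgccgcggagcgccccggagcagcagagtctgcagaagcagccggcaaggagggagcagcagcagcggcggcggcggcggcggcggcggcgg

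The table of promoters held a window for 8 of the 10 FGF genes. Each of the 3 windows above holds 1 GC box; 5 of the 8 FGF windows hold at least 1, beside 35.7% of 32851 windows of the same length over all genes. The Fgf18 window is 78.7% G and C with 47 CpG dinucleotides, more than 98.6% of all windows; that of Fgf2 holds 24 CpG and that of Fgf10 holds 10, against a median of 7. E2F factors, which Rb restrains, were searched by the letters TTTCCCGC, TTTGGCGC, TTTCGCGC and TTTGCCGC on both strands. These letters are in none of the 8 FGF windows and in 2.26% of all windows. The ETS letters CCGGAAG were likewise in none of the 8, and in 8.86% of all windows. A match or its absence describes only these letters in these windows.

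The other ligand of prostate stroma, Fgf7 or keratinocyte growth factor, did not pass the test. Its probe was bright, with a level of 3.82, 3.99 and 3.96 in Rb intact 1, 2 and 3 and of 3.82, 3.90 and 3.82 in Rb deleted 1, 2 and 3. The groups overlapped. The Fgf7 difference was -0.08 ± 0.07 (SE, limma adjusted p = 0.454), and its 95% interval of -0.23 to 0.08 does not reach the 0.28 by which Fgf10 rose.

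Fgf1, or acidic FGF, a ligand that can bind all FGF receptors, depended on 1 array. The intensity of its measured probe was 1657 in Rb intact 1 against 3642 and 3492 in Rb intact 2 and 3, and it was 2715, 2600 and 2817 in Rb deleted 1, 2 and 3. Rb intact 1 was thus the lowest of all 6 arrays, and the other Rb intact cultures were the highest. Over all arrays the Fgf1 difference was -0.09 ± 0.25 (SE, limma adjusted p = 0.824), with a 95% interval of -0.69 to 0.51. Without Rb intact 1 it was -0.39 ± 0.04, with an adjusted p of 0.00245, and without Rb intact 2 or 3 it was 0.054 and 0.073. The second Fgf1 probe was well above background on 1 of 6 arrays and was not tested.

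Fgf21 encodes an endocrine FGF that acts with the co-receptor beta-klotho and is known as a stress-induced hormone. Its intensity was 186 and 222 in Rb intact 1 and 2 but 578 in Rb intact 3, and it was 348, 380 and 391 in Rb deleted 1, 2 and 3. All Rb deleted cultures lay between Rb intact 3, the highest array, and the other Rb intact cultures. The Fgf21 difference was 0.31 ± 0.40 (SE, limma adjusted p = 0.609), with a 95% interval of -0.66 to 1.28. Without Rb intact 3 it was 0.81 ± 0.09, with an adjusted p of 0.00676; without Rb intact 1 or 2 it was 0.06 and 0.07.

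Fgf5, a ligand that is known to end the growth phase of hair, stood at -2.92, -3.01 and -3.12 in Rb intact 1, 2 and 3 and at -3.38, -3.16 and -3.07 in Rb deleted 1, 2 and 3. The groups overlapped through Rb deleted 3. The Fgf5 difference was -0.19 ± 0.10 (SE, limma adjusted p = 0.224), with a 95% interval of -0.42 to 0.05. Fgf9, a ligand with roles in gonad and lung development, was above background on 0 of 6 arrays, so no difference is given for it.

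The receptor genes did not pass the test. Fgfr1, a receptor that is widely expressed in stromal cells, had 3 probes. The brightest stood at 4.08, 3.86 and 3.82 in Rb intact 1, 2 and 3 and at 3.68, 3.86 and 3.76 in Rb deleted 1, 2 and 3, with overlap. It gave -0.15 ± 0.09 (SE, limma adjusted p = 0.281), with a 95% interval of -0.37 to 0.07. The other Fgfr1 probes, each tested on its own, gave -0.20 ± 0.06 (limma adjusted p = 0.0690) and -0.15 ± 0.13 (0.480), so all 3 probes had a negative difference and none was called. Of the 3, the probe at -0.20 was the one whose groups did not overlap, with Rb intact cultures at 1.02 ± 0.04 and Rb deleted cultures at 0.82 ± 0.05 (SD, n = 3 each).

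Fgfr2, the receptor of which a splice form binds Fgf7 and Fgf10, had 2 probes. The brighter stood at -4.10 in Rb intact 1 against -3.12 and -3.05 in Rb intact 2 and 3, and at -3.15, -3.20 and -3.11 in Rb deleted 1, 2 and 3. As for Fgf1, Rb intact 1 was the lowest array. The Fgfr2 difference was 0.26 ± 0.28 (SE, limma adjusted p = 0.528), with a 95% interval of -0.40 to 0.93, and it was -0.076 ± 0.05 without Rb intact 1 (adjusted p = 0.248). The other Fgfr2 probe, on 10 spots and dim, gave 0.04 ± 0.12 (adjusted p = 0.833), with a spot SD of 0.19 to 0.35. Which splice form each probe reads was not known here.

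**Figure D3:**
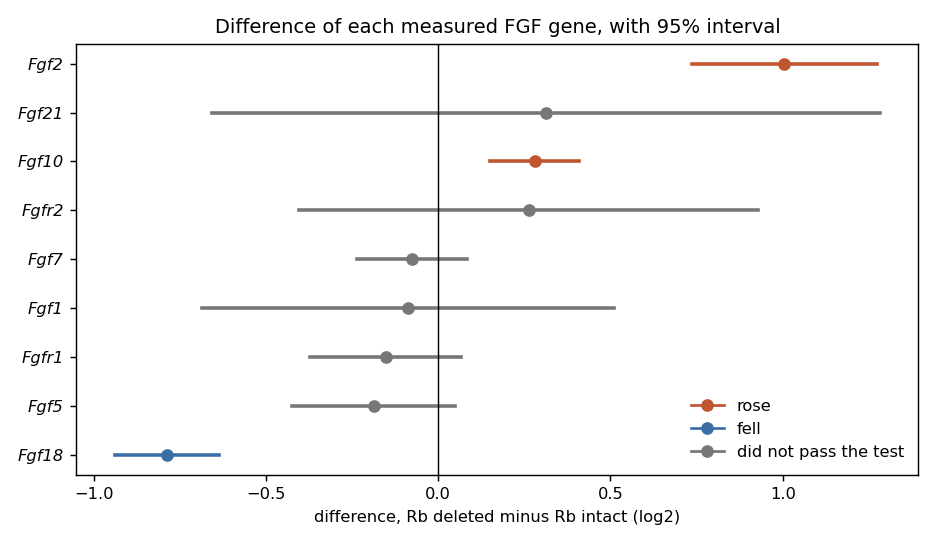
Difference of each measured FGF gene, as the log2 level with Rb deleted less that with Rb intact (horizontal axis), with its 95% interval from the limma fit; colour gives the call. Fgf2 and Fgf10 lie above 0 and Fgf18 below it, and the intervals of Fgf1, Fgf21 and Fgfr2 are wide.

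The other genes of the pathway were read in 6 lists, in which 15 of 74 measured genes were called, 12 higher and 3 lower. This is 20.3%, the same share as over all genes, and the median difference was 0.05. Of 14 other FGF ligand genes, 3 were measured and none passed the limma test (0 at an unadjusted p under 0.05); 11, among them Fgf3, Fgf4, Fgf8 and Fgf20, had no probe bright enough. Fgf23, an endocrine FGF and the brightest of the 3, stood at 0.45 in Rb intact 1 against 2.20 and 2.21 in Rb intact 2 and 3, and at 1.60, 1.35 and 1.28 in Rb deleted 1, 2 and 3. Like Fgf1 it was lowest in Rb intact 1 and highest in the other Rb intact cultures. It differed by -0.21 ± 0.47 (SE, limma adjusted p = 0.781), and by -0.79 without Rb intact 1 (adjusted p = 0.00499). Fgf11 (-0.14 ± 0.17) and Fgf14 (-0.54 ± 0.30), which encode FGFs that stay inside the cell, had adjusted p-values of 0.589 and 0.241.

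Among 5 other receptor and co-receptor genes, Fgfr3, Fgfr4 and Fgfrl1 were measured and none was called by limma (0 at an unadjusted p under 0.05), while the klotho genes Kl and Klb were too dim. Fgfr3 gave 0.12 ± 0.13 (SE, limma adjusted p = 0.547) and Fgfrl1, a receptor without a kinase domain, gave 0.05 ± 0.06 (adjusted p = 0.593), with an SD over its Rb intact cultures of 0.04. Fgfr4 stood at -3.67 in Rb deleted 1 against -5.83 and -5.73 in Rb deleted 2 and 3, and between -5.28 and -5.01 in Rb intact. Its difference was 0.10 ± 0.57 (limma adjusted p = 0.917) over all arrays, -0.61 without Rb deleted 1 (adjusted p = 0.0234) and 1.51 within the first slide, where Rb deleted 1 stands alone (adjusted p = 0.0424).

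FGFs act through heparan sulphate, and of 22 measured genes of FGF binding proteins and heparan sulphate 5 rose and 1 fell, with a median difference of 0.09. Beside this, 9.46% of all genes were called higher and 10.8% lower. Fgfbp3, a carrier protein that binds FGFs, rose by 0.55 ± 0.06 (SE, limma adjusted p = 0.00188), from 0.20 ± 0.05 in Rb intact to 0.74 ± 0.04 in Rb deleted (SD, n = 3 each). Hs2st1, a heparan sulphate sulphotransferase, rose by 0.34 ± 0.05 (adjusted p = 0.0081), a call lost with the background model on median signal (0.26, adjusted p = 0.0598) and with slide as a block (adjusted p = 0.0651). Sulf1, which removes sulphate from these chains, rose by 0.46 ± 0.10 (adjusted p = 0.0262). Hspg2, the basement membrane proteoglycan perlecan, fell by 0.51 ± 0.06 (adjusted p = 0.00281). The brightest, agrin or Agrn, gave 0.26 ± 0.08 (adjusted p = 0.0769). The Sulf1 call was lost without Rb intact 2 or any 1 Rb deleted array (adjusted p between 0.0518 and 0.103). It was lost too with slide as a block (limma adjusted p = 0.236), with no filter on dim probes (0.0766) and with the background model (0.0581). Without Rb intact 1, 8 of these genes rose and 2 fell, beside 37.2% of all genes called. Without Rb intact 2, or any 1 Rb deleted array, 2 rose and 1 fell, beside 9% to 13.1% of all genes. Without Rb intact 3, 3 rose and 1 fell, beside 12.1%. With slide as a block 1 rose and 1 fell, beside 4.9%. With no filter on dim probes 2 of 25 rose and 2 fell, beside 7.18%. Sulf2, above background on 0 of 6 arrays, was 1 of the 2 that fell there. With the background model 2 rose and 2 fell, beside 17.9%.

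Of 22 measured genes that carry the signal from the receptor to ERK and PI3-kinase, 1 rose and none fell, beside 20.3% of all genes called in either direction. Without Rb intact 1, 3 rose and 2 fell, beside 37.2% of all genes. Map2k1, the kinase MEK1, rose by 0.23 ± 0.05 (SE, limma adjusted p = 0.0309), a call that was lost when any array but Rb intact 1 was left out (adjusted p between 0.0687 and 0.133), with slide as a block (0.265) and with no filter on dim probes (0.0883). The guanine exchange factor gene Sos1 gave 0.20 ± 0.06 (adjusted p = 0.0526) and the adaptor gene Shc1 -0.28 ± 0.09 (0.0719). Without Rb intact 1, Shc1 was at -0.19 (adjusted p = 0.0265). The brightest, the phosphatase gene Ptpn11, gave 0.05 ± 0.06 (0.577).

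The 12 feedback inhibitors of FGF signalling, which include the Sprouty, Spred and Dusp genes, were all measured. Only Dusp4, a phosphatase that inactivates ERK in the nucleus, was called, beside 20.3% of all genes. It fell by 0.55 ± 0.05 (SE, limma adjusted p = 0.00159), from -0.05 ± 0.05 to -0.59 ± 0.03 (SD, n = 3 each). The brightest, Dusp6, whose level follows ERK activity in many cells, gave -0.11 ± 0.11 (adjusted p = 0.505). Spry1 gave 0.16 ± 0.05 (0.0728), Il17rd, which encodes an inhibitor at the membrane, 0.18 ± 0.06 (0.0777) and Spred1 -0.16 ± 0.07 (0.188). The median over the 12 genes was -0.10, and without Rb intact 1 it was 0.01, with 2 genes called higher and 2 lower beside 37.2% of all genes; Spry1 and Il17rd were then called (adjusted p = 0.0326 and 0.0340).

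Of 12 transcription targets of ERK, 6 rose and 1 fell, with a median difference of 0.28 beside 0.01 over all genes. Of all genes, 9.46% were called higher and 10.8% lower. The immediate early gene Fos rose by 0.72 ± 0.06 (SE, limma adjusted p = 0.000898), from -3.65, -3.75 and -3.77 in Rb intact 1, 2 and 3 to -3.06, -2.95 and -3.00 in Rb deleted 1, 2 and 3. Egr1, an immediate early transcription factor gene, rose by 0.59 ± 0.06 (adjusted p = 0.00213), Ier2 by 0.50 ± 0.06 (0.00311) and Ier3 by 0.47 ± 0.07 (0.00763). The cyclin gene Ccnd1, the brightest, gave -0.29 ± 0.13 (0.176) and -0.43 without Rb intact 1 (0.0111). These genes respond to many signals other than FGF. Without Rb intact 2 or 3, or without any 1 Rb deleted array, 4 rose and none fell, beside 9% to 13.1% of all genes called. The same counts came with the median shift (18% of all genes) or with no filter on dim probes (7.18%). Without Rb intact 1, 7 rose and 2 fell, beside 37.2% of all genes called. With slide as a block, where 4.9% of all genes were called, 2 rose, Ier2 and Ier3 being lost (adjusted p = 0.054 and 0.0979). The median was then 0.28. Within the first slide it is the same by construction, since Rb deleted 1 alone sets the differences in both.

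**Figure D4:**
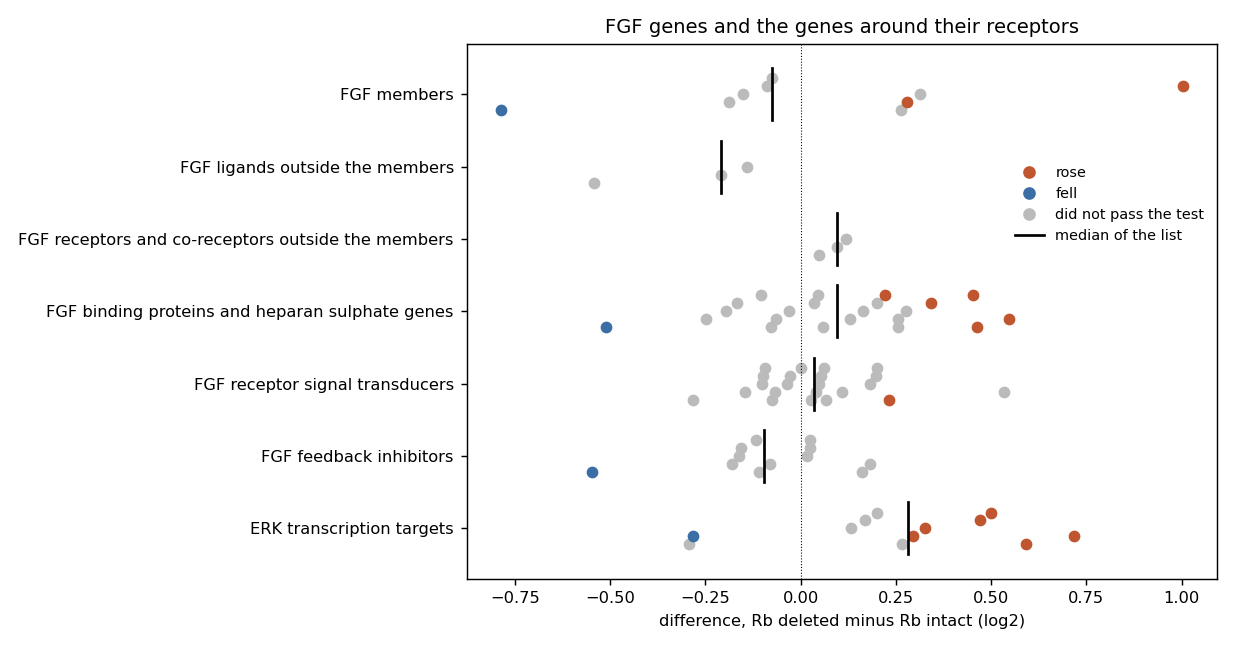
Difference of each measured gene, as the log2 level with Rb deleted less that with Rb intact (horizontal axis), by list; each point is a gene, colour gives the call and the bar the median of the list. The ERK targets have the highest median, 0.28, and the feedback inhibitors have 1 called gene of 12.

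Markers of the cell types the cultures could hold were read beside the FGF genes. All 12 fibroblast and stromal markers were measured, among them Dcn, Vim, Pdgfra and Col1a2. Their summed intensity, relative to the 75th percentile, was 393 to 410 in Rb intact and 368 to 393 in Rb deleted (exact two-sided permutation p = 0.2, or 0.3 adjusted over the 6 marker lists), and Fbln1 rose (0.34 ± 0.05, limma adjusted p = 0.00671) while Lum fell (-0.40 ± 0.07, 0.00888). The Fbln1 call was lost with slide as a block (adjusted p = 0.0900). Of 8 basal epithelial markers 4 were measured. The epithelial genes Cdh1 and Epcam and the keratin gene Krt15 were above background on 0 of 6 arrays, and the better Krt5 probe was so on 3. Itga6, Itgb4 and Trp63 fell by 0.58 ± 0.08, 0.42 ± 0.08 and 0.26 ± 0.07 (limma adjusted p = 0.00516, 0.0131 and 0.0441). Krt14, the other measured basal marker, went the other way without passing the test, at 0.06 ± 0.14 (limma adjusted p = 0.769). The sum of the basal list was 28.7 to 34.4 in Rb intact and 20.8 to 21.4 in Rb deleted (exact two-sided permutation p = 0.1, adjusted 0.2). It adds unlogged intensities and so is mostly Itga6. The mean log2 level in Rb intact was 4.87 for Itga6, against 0.80 for Trp63, -3.09 for Itgb4 and -5.02 for Krt14. The Itgb4 call was lost without Rb intact 3 or Rb deleted 3 (adjusted p = 0.0503 and 0.0587), that of Trp63 without any array but Rb intact 1 (0.0606 to 0.150), and those of all 3 with slide as a block (Itga6 0.0745, Itgb4 0.0966, Trp63 0.386). Of 8 prostate secretory and luminal markers 3 were measured, with sums of 10.9 to 12.1 and 9.34 to 10.8; Msmb and Hoxb13 were not above background on any array.

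Of 5 measured smooth muscle genes, 4 fell, beside 10.8% of all genes. The falls were 1.35 ± 0.14 for Acta2, 0.83 ± 0.07 for Actg2, 0.81 ± 0.07 for Cnn1 and 0.93 ± 0.06 for Tagln (limma adjusted p = 0.00211, 0.000758, 0.000942 and 0.00043). Smtn, the fifth, went the other way without passing the test, at 0.31 ± 0.13 (limma adjusted p = 0.145), and passed it with the mean of its probes (0.24, adjusted p = 0.0177). The sum of the list was 40.5 to 48.2 in Rb intact and 27.7 to 28.5 in Rb deleted (exact two-sided permutation p = 0.1, adjusted 0.2, the first being the smallest that 3 against 3 arrays allow). The leukocyte list, with Ptprc and Lyz2 not above background on any array, had 3 measured genes and sums of 2.73 to 6.75 and 4.10 to 4.79, the lowest being Rb intact 1, where Itgam stood at 0.73 against 2.40 and 2.43 in Rb intact 2 and 3. The endothelial list had 4 measured genes and sums of 3.79 to 3.93 and 3.29 to 3.96. Its gene Vwf was above background on all 3 Rb intact arrays but on 1 Rb deleted array, so no difference is given for it. The part of any of these cell types in the FGF differences was not tested.

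**Figure D5:**
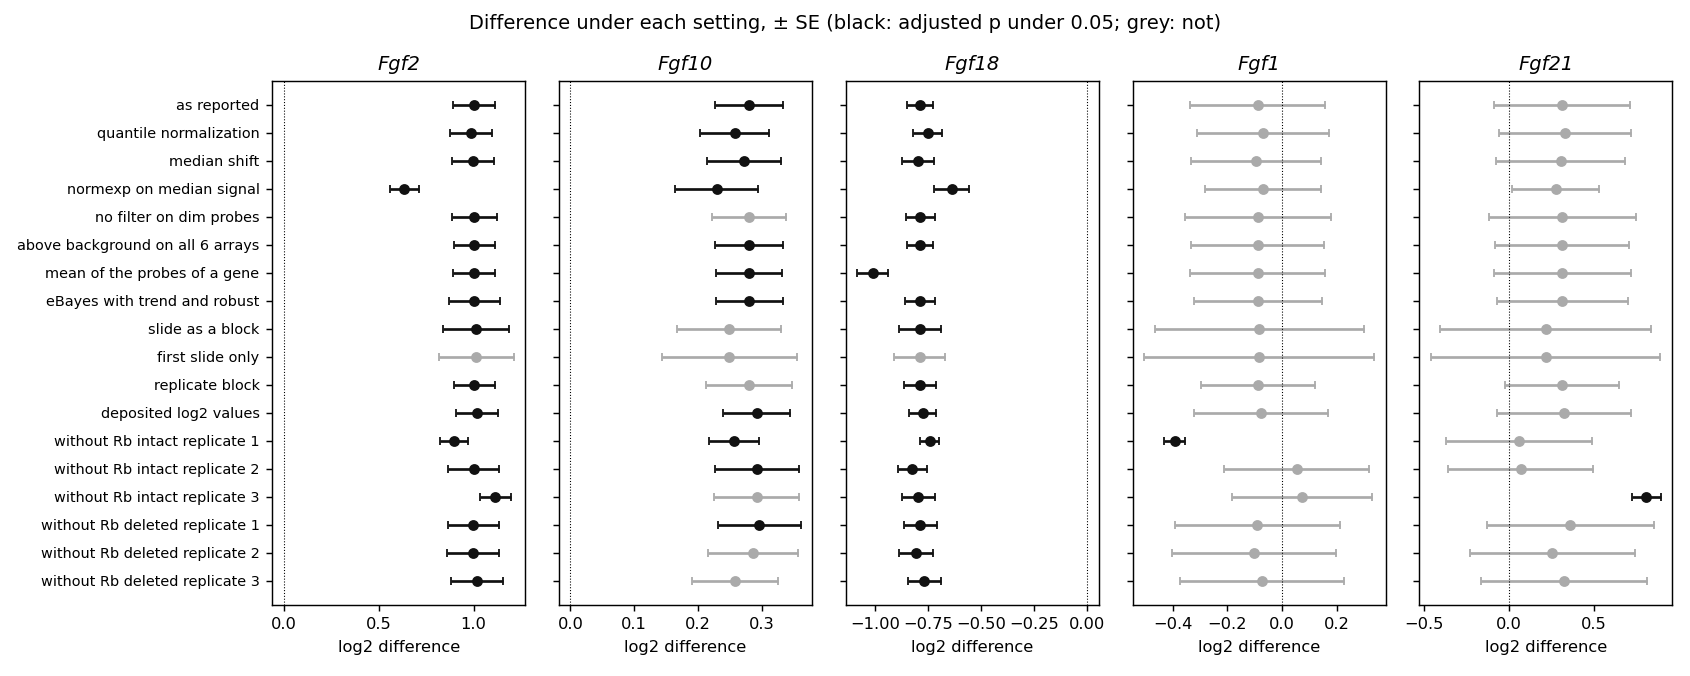
Difference of Fgf2, Fgf10, Fgf18, Fgf1 and Fgf21 (log2, horizontal axes, ± SE) under the reported setting and each alternative (vertical axis); black points passed an adjusted p of 0.05 and grey did not. Fgf2 and Fgf18 are grey only within the first slide, Fgf10 is grey under 6 further settings, and Fgf1 and Fgf21 are black under 1 setting each. With slide as a block the differences are those of the first slide, set by Rb deleted 1 alone.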

How the data were processed

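The authors deposited intensity values from Agilent Feature Extraction, whose version is 11.0.1.1 in the file headers and 10.7.3.1 in the submitters' processing notes; the processed intensity is background-subtracted and not scaled between arrays. The deposited flags for spots above background, saturated or outlying are coded 0 or 1. The authors also deposited log2 values for 22164 gene probes used here, which equalled the log2 processed intensity minus a constant per array (within 0.01 for 100% of probes); why that constant was chosen is not stated. The medians of its columns were -0.52, -0.49, -0.50, -0.51, -0.51 and -0.51.

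Outlying spots were left out of the 43020 non-control spots, log2 intensity was shifted by the 75th percentile, and spots were averaged to 39429 probes. A probe was above background if over 50% of its spots were, and was kept if so on all 3 arrays of a group (23045 probes). RefSeq accessions named 27427 probes through a table of assembly GRCm38.p6; the array was designed on mm9. Each gene took its brightest kept probe. The comparison used lmFit and eBayes of limma 3.58.1 (R 4.3.3). The fit was also run on simulated data with independent noise for each gene, which held no slide effect and no outlying array. Precision is limited by the 3 arrays per group. Alternatives were other scalings, a background model, filters, probe rules, eBayes options, slide or replicate blocks and leaving out each array.

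The FGF genes, the lists and the settings were chosen with earlier results of these data known. Named are all FGF genes, Rb1, up to 4 genes with the smallest p and the brightest gene of each pathway list, and the 3 genes most like the FGF gene with the smallest p. Of the marker genes that rule names, those called and above background in both groups are printed with values. Values of the marker genes Krt14, Smtn and Itgam are printed too. Files held no gene names and no mean spot signal, so accessions alone named probes and the background model used median signals. A few items are not reported here.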

Additional observations from a re-analysis of the deposited data

How the results depend on the processing

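The count of FGF genes called was 3 as reported, 2 or 3 under the other settings that kept all 6 arrays, 2 to 4 with 1 array left out, and 0 within the first slide. The count of all genes called, 2779 as reported, was 154 within the first slide, 672 when slide was a block and 1490 with no filter on dim probes; leaving out 1 array gave 1234 to 5104. Same-numbered cultures did not deviate together from their group means (r = -0.03, -0.05 and 0.02 over genes). These values cannot tell whether same-numbered cultures came from the same cell preparation, and this was not tested. With the replicate block 1640 genes were called, Fgf2 and Fgf18 among them (limma adjusted p = 0.0118 and 0.00916). Fgf10 (0.0656), Map2k1 (0.10), Nudt6 (0.051) and Trp63 (0.116) were not called with that block. Between 4 scalings the median difference of all genes lay from -0.0034 to 0.013. Over 17 other settings the difference lay between 0.64 and 1.12 for Fgf2, between -1.01 and -0.64 for Fgf18 and between 0.23 and 0.30 for Fgf10, whose call was lost under 7, among them no filter on dim probes (limma adjusted p = 0.0523). Leaving out 1 array moved Fgf1 between -0.39 and 0.073 and Fgfr2 between -0.076 and 0.45, with the sign turned for Fgf1 without Rb intact 2 (0.054) or 3 and for Fgfr2 without Rb intact 1. Fgf5, Fgf7 and Fgfr1 stayed uncalled and negative under all 17. The first slide has fewer arrays; the cause of the other changes was not tested. Dim probes, such as those of Fgf2 and Fgf21, are limited by signal over background.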
